A study of Yarrowia lipolytica with 4 samples.

Results

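Fatty aldehyde dehydrogenases oxidise long-chain aldehydes to fatty acids, using a nicotinamide cofactor. Yarrowia lipolytica, an oil-storing yeast that can grow on n-alkanes, has 4 genes for them, FALDH1 to FALDH4. They were taken here by a list of identifiers from the 6447 protein-coding genes present in both deposited tables. In each case the deposited annotation names the same relative, YMR110C of Saccharomyces cerevisiae, which is HFD1, the fatty aldehyde dehydrogenase of that yeast. No other gene in the tables carries that annotation. For 3 of the 4 the text also says aldehyde dehydrogenase, and for FALDH4 it names the yeast relative alone.

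Aldehydes of this kind reach the enzymes by 2 routes. In alkane-grown Yarrowia, cytochrome P450 enzymes turn n-alkanes into fatty alcohols, alcohol dehydrogenases or a fatty alcohol oxidase turn those into aldehydes, and the resulting acids are activated to acyl-CoA and enter beta-oxidation. In sphingolipid breakdown, a kinase phosphorylates long-chain bases and a lyase cuts the phosphate into phosphoethanolamine and a fatty aldehyde, which HFD1 oxidises in Saccharomyces cerevisiae. SUR2 hydroxylates long-chain bases, and in that yeast the aldehyde from the hydroxylated base carries a hydroxyl group that the other aldehyde lacks.

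The study compared a strain in which SUR2 was replaced by LEU2, in a ku70 disruption background (ku70∆::tc sur2∆::LEU2, the sur2 deletion), with the ku70 disruption alone (ku70Δ::tc, the strain with the label WT, named the parent below). Both were PO1f cells grown in rich YPD medium at 28 °C to an OD600 of 0.8, with 2 libraries of polyadenylated RNA each. Whether the 2 libraries of a strain came from separate cultures is not stated, and the p-values below therefore cover only their spread, which could be technical. Each deposited table, 1 of transcripts and 1 of genes, held 1 library of each strain, and libraries are named by strain and table. Loss of SUR2 and insertion of LEU2 cannot be told apart in this design.

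Totals ran from 8765729 counts in the gene-table deletion library to 16698719 in the transcript-table deletion library. SUR2 had 0 and 0 reads in the deletion libraries and 1402 and 1319 in the parent libraries, in the order transcript table and gene table, which is kept below. For KU70, which both genotypes disrupt, 52 and 14 reads were counted in the deletion libraries and 89 and 23 in the parent libraries, so each library still held some. LEU2 (YALI0_C00407g) had 1040 and 1528 reads in the deletion libraries and 1532 and 2400 in the parent libraries, so both strains held its reads. On the scales explained below, deletion over parent was 0.680-fold and 0.770-fold in TMM-scaled CPM. In deposited TPM it was 0.735-fold and 1.31-fold, so the LEU2 direction in the gene table depends on the scale. The 2 libraries of a strain differed by a median of 1.40-fold in the deletion strain and 1.34-fold in the parent over tested genes with reads in both. In edgeR's quasi-likelihood test 75 of 6051 genes (1.24%) passed an adjusted p of 0.05, 60 of them higher (0.992%) and 15 lower (0.248%) in the deletion strain.

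FALDH1 (YALI0_A17875g) lies on the minus strand of chromosome A at 1850186 to 1851787. FALDH2 (YALI0_E15400g) is on the minus strand of chromosome E at 1834378 to 1835943, and FALDH3 (YALI0_B01298g) on the plus strand of chromosome B at 215862 to 217451. FALDH4 (YALI0_F23793g) is on the minus strand of chromosome F at 3119824 to 3121383. The 4 genes thus stand on 4 chromosomes and none is a tandem copy of another. Coordinates are those of the deposited tables, and the sources used here do not give their genome build. The spans run from 1560 bases for FALDH4 to 1602 for FALDH1, and each is a multiple of 3. As relatives of a single yeast protein the 4 genes could share reads, and how such reads were counted is not known.

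FALDH4 was the predominant fatty aldehyde dehydrogenase transcript in every library. Levels are compared between genes as TPM, which scales reads for length and library. FALDH4 had 123.15 and 296.45 TPM in the deletion libraries, against 74.52 and 61.85 TPM in the parent libraries. It exceeded the second gene 10.3-fold and 12.9-fold in the deletion libraries and 4.84-fold and 8.75-fold in the parent libraries. Among protein-coding genes it stood above 80.6% and 90.1% in the deletion libraries and above 74.3% and 74.4% in the parent libraries.

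FALDH2 and FALDH3 were close to each other and below the typical gene. FALDH2 had 11.93 and 22.93 TPM in the deletion libraries, against 15.39 and 6.90 TPM in the parent libraries. FALDH3 had 10.5 and 21.33 TPM in the deletion libraries, against 9.14 and 7.07 TPM in the parent libraries. The median protein-coding gene had 30.66 and 38.14 TPM in the deletion libraries and 28.73 and 19.97 TPM in the parent libraries, above both genes each time. FALDH2 stood above FALDH3 in both deletion libraries and the transcript-table parent library and below it in the gene-table parent library, with ratios of FALDH2 to FALDH3 of 1.14 and 1.07 in the deletion libraries and 1.68 and 0.976 in the parent libraries. Their order therefore did not hold across the libraries.

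FALDH1 was the lowest of the 4 in every library. It had 1.13 and 0.75 TPM in the deletion libraries, against 2.27 and 1.27 TPM in the parent libraries. These levels rest on 44 and 14 reads in the deletion libraries (exact 95% Poisson intervals 32.0 to 59.1 and 7.65 to 23.5) and 92 and 48 in the parent libraries (74.2 to 113 and 35.4 to 63.6), intervals that cover counting error only. The reads are well above 3, the limit that a count of 0 allows, so reads were counted for FALDH1 in each library. Whether some of them were shared with its more abundant relatives is not known. FALDH1 stood above 9.23% and 8.36% of protein-coding genes in the deletion libraries and above 14.1% and 14.3% in the parent libraries.

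The summed level of the 4 genes was 146.71 and 341.46 TPM in the deletion libraries, against 101.32 and 77.09 TPM in the parent libraries. FALDH4 made up 83.9% and 86.8% of the sum in the deletion libraries (mean 85.4% ± 2.03, SD, n = 2) and 73.5% and 80.2% in the parent libraries (76.9% ± 4.72, SD, n = 2). The share of FALDH1 was 0.77% and 0.22% in the deletion libraries and 2.24% and 1.65% in the parent libraries. FALDH2 had 8.13% and 6.72% in the deletion libraries and 15.2% and 8.95% in the parent libraries. FALDH3 had 7.16% and 6.25% in the deletion libraries and 9.02% and 9.17% in the parent libraries. For each of the 4 genes the shares of the 2 strains did not overlap. As parts of a single sum the shares are not independent, since a higher FALDH4 share leaves less for the others. The smallest two-sided p that an exact permutation test of 2 libraries against 2 can give is 0.333, so such shares are given without a test.

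**Figure D1:**
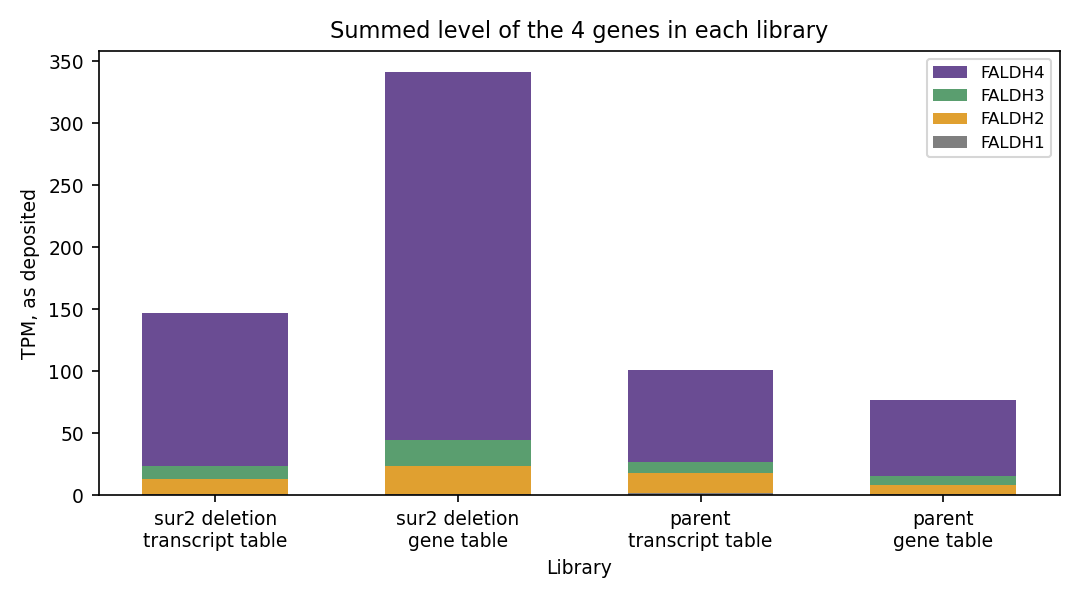
Deposited TPM of FALDH1 to FALDH4 stacked for each of the 4 libraries, deletion strain on the left and parent on the right, 1 bar per library. FALDH4 fills 83.9% and 86.8% of the deletion bars and 73.5% and 80.2% of the parent bars, FALDH1 is too thin to see, and the gene-table deletion library is the tallest at 341.46 TPM.

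The 4 transcripts were then compared between the strain with LEU2 in place of SUR2 and its parent. By edgeR 0 of the 4 genes passed the test over all genes, against 1.24% of all tested genes, and 1 of the 4, FALDH4, had an unadjusted p under 0.05, as did 752 of the 6051 (12.4%). With DESeq2, which called 6.38% of all tested genes, and with limma on log2(TPM + 1), which called 3.33%, 0 of the 4 passed as well. All 4 passed the filter on low counts. Log2 fold changes are deletion over parent and, like the CPM values, use trimmed mean (TMM) scaling, under which the median over all tested genes was 0.03. Their median over the 4 genes was 0.41. Values after ± are standard errors for log2 fold changes and standard deviations over 2 libraries for CPM.

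FALDH4, the most abundant of the 4, had 4636 and 5368 reads in the deletion libraries and 2936 and 2268 in the parent libraries. That is 271 and 549 CPM in the deletion libraries (410 ± 197, n = 2), against 171 and 192 CPM in the parent libraries (182 ± 14.5, n = 2). Both deletion libraries were above both parent libraries, and the gene-table deletion library stood far above the rest. The fitted difference was 2.26-fold (log2 fold change 1.18 ± 0.46, 95% interval 0.12 to 2.23, edgeR adjusted p = 0.334). The interval is for this gene alone, and over all genes the difference did not pass.

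The size of the FALDH4 difference depended on the library. Deletion over parent was 1.58-fold in the transcript table and 2.86-fold in the gene table. The 2 deletion libraries themselves differed 2.03-fold, more than 80.4% of tested genes did, whereas the parent libraries differed 1.12-fold. Without the transcript-table deletion library the log2 fold change was 1.59 and passed (adjusted p = 0.0147, edgeR), in a fit where 11.2% of all tested genes passed, and without the gene-table deletion library it was 0.58 (adjusted p = 0.871, edgeR). The lone deletion library is assumed in those fits to vary like the parent ones.

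FALDH1 was the only one of the 4 with lower values in the deletion strain in both tables. It had 2.57 and 1.43 CPM in the deletion libraries (2.0 ± 0.80, n = 2), against 5.37 and 4.06 CPM in the parent libraries (4.71 ± 0.92, n = 2). The groups did not overlap. Its log2 fold change was -1.22 ± 0.66 (95% interval -2.74 to 0.30, edgeR adjusted p = 0.526), which did not pass. Of the tested genes, 3.29% had a lower log2 fold change.

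FALDH3 had 404 and 395 reads in the deletion libraries and 368 and 265 in the parent libraries. In CPM these are 23.6 and 40.4 in the deletion libraries (32.0 ± 11.9, n = 2), against 21.5 and 22.4 in the parent libraries (21.9 ± 0.67, n = 2). The transcript-table deletion library was only just above the parent libraries and the gene-table one well above them. The log2 fold change was 0.54 ± 0.42 (95% interval -0.42 to 1.51, edgeR adjusted p = 0.692) and did not pass. It was 0.88 without the transcript-table deletion library and 0.10 without the gene-table one.

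FALDH2 had 451 and 417 reads in the deletion libraries and 609 and 254 in the parent libraries. In CPM these are 26.3 and 42.7 in the deletion libraries (34.5 ± 11.5, n = 2), against 35.5 and 21.5 in the parent libraries (28.5 ± 9.93, n = 2). The groups overlapped, and the direction turned with the table, deletion over parent being 0.741-fold in the transcript table and 1.99-fold in the gene table. The log2 fold change was 0.27 ± 0.43 (95% interval -0.73 to 1.27, edgeR adjusted p = 0.885). The interval reaches beyond a doubling, so a change of that size in FALDH2 cannot be told from none with these libraries. Without the gene-table deletion library or the gene-table parent library the sign was negative, at -0.12 and -0.04.

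For FALDH3 and FALDH4, 2 of the 4, both deletion libraries were above both parent libraries, as for 22.1% of all tested genes. For FALDH1, 1 of the 4, both deletion libraries were below both parent libraries, as for 20.2%. With so few genes these counts only describe the members.

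**Figure D2:**
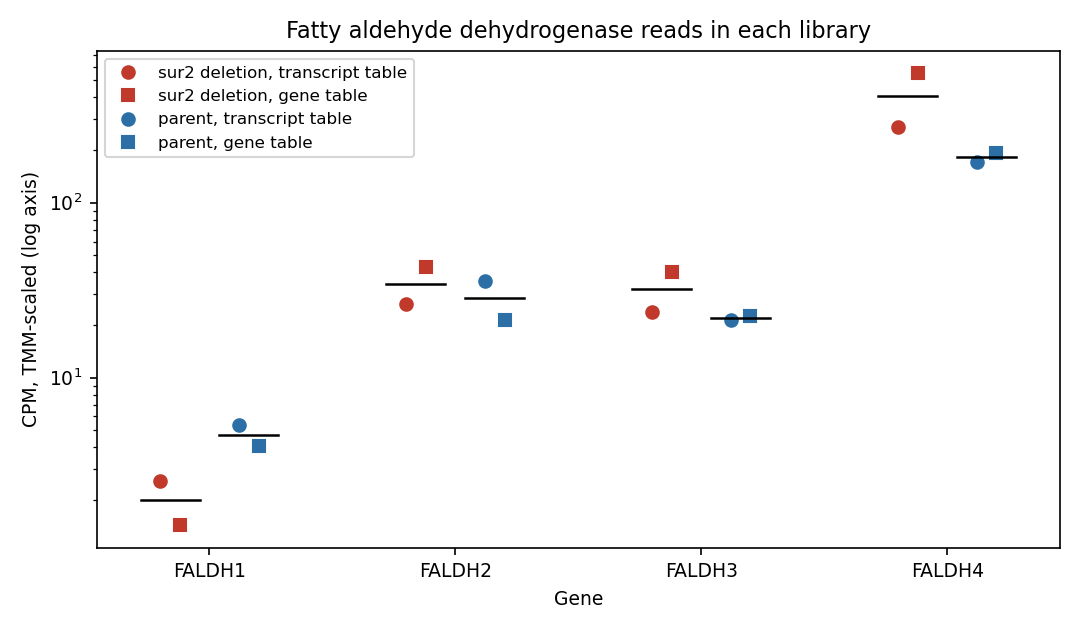
TMM-scaled CPM of the 4 genes on a log axis, 1 point per library, deletion libraries (red) left of parent libraries (blue) for each gene, circles for the transcript table, squares for the gene table and a line at each mean. FALDH4 is at 271 and 549 CPM in the deletion strain and 171 and 192 in the parent, FALDH1 is lower in both deletion libraries, and the FALDH2 points of the 2 strains overlap.

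The scale matters for all 4 genes in the gene table. In deposited TPM, deletion over parent there was 0.591-fold for FALDH1, 3.32-fold for FALDH2, 3.02-fold for FALDH3 and 4.79-fold for FALDH4. In TMM-scaled CPM the ratios were 0.353, 1.99, 1.80 and 2.86-fold in the same order. In the transcript table the TPM ratios of FALDH1 to FALDH4 were 0.498, 0.775, 1.15 and 1.65. TPM was not scaled between libraries, and on log2(TPM + 1) the median over all tested genes was 0.40. Relative to that median FALDH4 was at 1.08, FALDH3 at 0.42, FALDH2 at 0.23 and FALDH1 at -0.90, where the added 1 shrinks the change of a gene as low as FALDH1. Set against the median protein-coding gene of its own library, FALDH4 was 4.02 and 7.77 times as high in the deletion libraries and 2.59 and 3.10 times as high in the parent libraries.

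**Figure D3:**
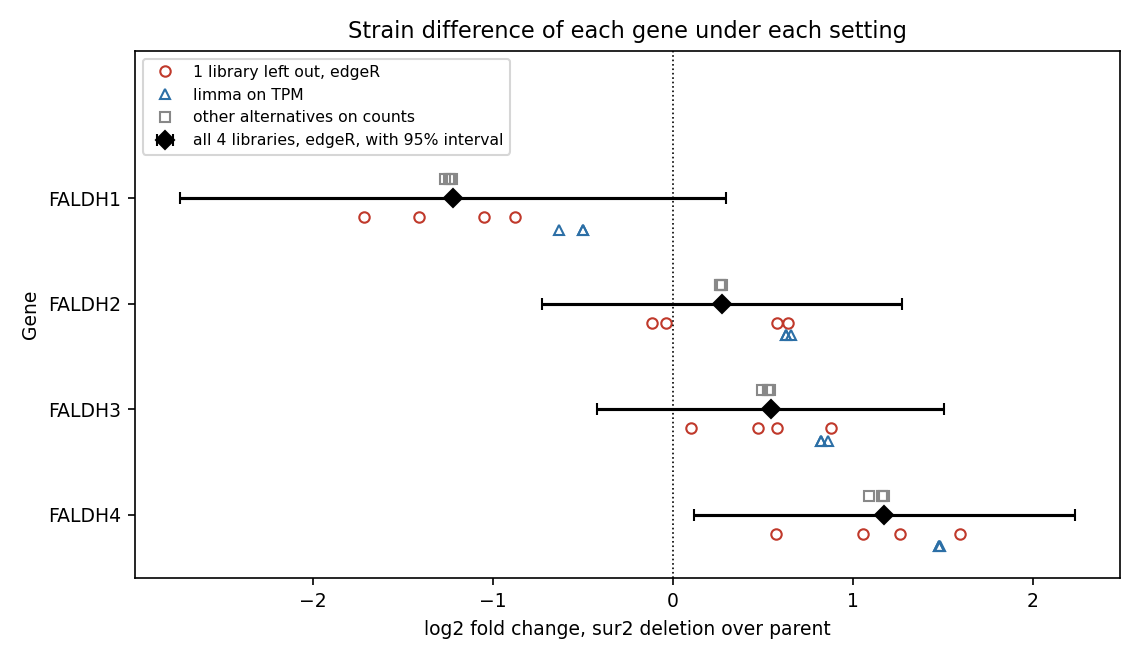
Log2 fold change of each gene, deletion over parent, with its 95% interval from all 4 libraries (black diamonds) and the values with 1 library left out (red circles), with limma on TPM (blue triangles) and under the other alternatives on counts (grey squares). The FALDH4 values run from 0.58 to 1.59 and the FALDH1 values from -1.72 to -0.50, while the FALDH2 values lie on both sides of 0.

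The 4 genes did not share a single pattern over the libraries. The measure of likeness is the root mean square difference in log2 CPM, centred on each gene's mean over the 4 libraries, so 0 means identical patterns. FALDH2 and FALDH3 were at 0.298, FALDH3 and FALDH4 at 0.313, and FALDH2 and FALDH4 at 0.525. FALDH1 was farthest from FALDH4, at 1.33, and at 0.92 and 1.03 from FALDH2 and FALDH3. Only 4.25% of tested genes were closer to FALDH4 than FALDH3 was, and 93.4% were closer than FALDH1.

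Among described genes, the nearest to FALDH4 were YALI0_B15268g, related to aldose reductases (0.080), YALI0_C02805g, related to a beta-ketoacyl reductase (0.0923), and YALI0_A16819g, related to an aspartate protease (0.114). Nearest to FALDH1 were YALI0_D26818g, related to the metal transporter SMF2 (0.0744), YALI0_A07447g, related to the transporter HOL1 (0.0988), and YALI0_F04103g, the cytochrome c oxidase subunit COX8 (0.106). The genes nearest to FALDH2 were relatives of the vesicle traffic gene SEC15 (YALI0_F12969g, 0.0246), of an autophagy membrane protein (YALI0_F08349g, 0.0503) and of VAC14 (YALI0_B22682g, 0.0656). Those nearest to FALDH3 were relatives of hob3 (YALI0_C08118g, 0.0394), AFG1 (YALI0_E16126g, 0.0435) and PTM1 (YALI0_A18986g, 0.0437). These distances rest on 4 libraries and are a description.

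On its chromosome FALDH2 stands next to MFE1 (YALI0_E15378g), the multifunctional enzyme of peroxisomal beta-oxidation, on the same strand and 2138 bases away. MFE1 had 522 and 1255 CPM in the deletion libraries, against 428 and 374 CPM in the parent libraries. Its groups did not overlap, unlike those of FALDH2, and its log2 fold change was 1.15 ± 0.52 (edgeR adjusted p = 0.426). Without the transcript-table deletion library MFE1 was at 1.64 and passed (adjusted p = 0.0191, edgeR), and without the gene-table deletion library it was at 0.38 (adjusted p = 0.979, edgeR). Next to FALDH1, 836 bases away on the same strand, YALI0_A17897g, a gene without known relatives, had 41 and 27 reads in the deletion libraries and 3 and 12 in the parent libraries, where FALDH1 had more reads in the parent libraries. Its log2 fold change was 2.15 ± 0.92 (edgeR adjusted p = 0.385), or 1.29 without the transcript-table parent library and 3.82 without the gene-table one. The other 6 neighbours lay between -0.39 and 0.39 on the log2 scale. Of the 8 neighbours 0 passed with edgeR, DESeq2 or limma on TPM, against 1.24%, 6.38% and 3.33% of all tested genes. In edgeR 1 of the 8 had an unadjusted p under 0.05, against 12.4% of all tested genes.

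The aldehyde dehydrogenases outside the family act on shorter aldehydes in Saccharomyces cerevisiae and were taken from the annotation. Left out were 6 genes whose annotation names a semialdehyde or glyceraldehyde, and 4 genes remained. Of these 4 genes 3 were tested and 0 passed with edgeR, DESeq2 or limma on TPM, against 1.24%, 6.38% and 3.33% of all tested genes. In edgeR 0 of the 3 had an unadjusted p under 0.05, against 12.4% of all tested genes. The median log2 fold change of the 3 was 0.07. YALI0_F04444g, related to the mitochondrial enzyme ALD5, had 197 and 361 CPM in the deletion libraries against 155 and 147 CPM in the parent libraries (log2 fold change 0.88 ± 0.42, edgeR adjusted p = 0.461). YALI0_D07942g, described as aldehyde dehydrogenase 2, had a log2 fold change of -0.54 ± 0.42 (edgeR adjusted p = 0.692), and YALI0_E00264g, related to ALD4, one of 0.07 ± 0.55 (edgeR adjusted p = 0.979). Without the gene-table deletion library YALI0_F04444g was at 0.38 and YALI0_D07942g at -1.07, and without the transcript-table one they were at 1.25 and -0.15. The untested one, YALI0_C03025g, had 3 and 8 reads in the deletion libraries and 0 and 1 in the parent libraries. Together these 4 genes summed to 215 and 511 TPM in the deletion libraries and 238 and 228 TPM in the parent libraries, above the sum of FALDH1 to FALDH4 in each library.

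The steps that supply fatty aldehyde from alkanes comprise the cytochromes P450 ALK1 to ALK12, the alcohol dehydrogenases ADH1 to ADH7, FADH, and the fatty alcohol oxidase FAO1. Of these 21 genes 20 were tested and 0 passed in either direction with edgeR, where 2 had an unadjusted p under 0.05. With DESeq2 1 passed, and with limma on TPM 0. Over all tested genes 1.24% passed with edgeR, 6.38% with DESeq2 and 3.33% with limma on TPM. An unadjusted p under 0.05 in edgeR was found for 12.4% of all tested genes. The 20 tested genes of the list were split evenly, with 10 above and 10 below 0 and a median log2 fold change of -0.01. The smallest p belonged to ADH2 (YALI0_E17787g), at 86.3 and 167 CPM in the deletion libraries against 500.3 and 425 CPM in the parent libraries (log2 fold change -1.87 ± 0.46, edgeR adjusted p = 0.125). It passed with DESeq2 (adjusted p = 0.00107) and without the gene-table deletion library, where it was at -2.42 (adjusted p = 0.0019, edgeR, with 3.34% of all tested genes called). ADH3 (YALI0_A16379g) followed at -0.94 ± 0.37 (edgeR adjusted p = 0.34), and ALK6 (YALI0_B01848g) at 0.88 ± 0.48 (edgeR adjusted p = 0.529). Without the transcript-table parent library ADH3 was at -0.58, and without the gene-table deletion library ALK6 was at 0.31.

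The steps that use the fatty acid made by these enzymes are acyl-CoA synthesis, transport into the peroxisome and beta-oxidation. All 13 genes of this list were tested. With edgeR 0 passed, with DESeq2 1 and with limma on TPM 0, against 1.24%, 6.38% and 3.33% of all tested genes. In edgeR 1 of the 13 had an unadjusted p under 0.05, against 12.4% of all tested genes. The list had a median log2 fold change of 0.12. POX5 (YALI0_C23859g), an acyl-CoA oxidase, had 19.5 and 27.3 CPM in the deletion libraries against 80.4 and 50.8 CPM in the parent libraries (log2 fold change -1.49 ± 0.41, edgeR adjusted p = 0.172). It passed with DESeq2 (adjusted p = 0.0286) and without the gene-table deletion library (-1.75, adjusted p = 0.0312, edgeR). MFE1 is given above, and FAT1 (YALI0_E16016g), the very-long-chain acyl-CoA synthetase, was at 0.85 ± 0.44 (edgeR adjusted p = 0.502), or 0.40 without the gene-table deletion library.

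**Figure D4:**
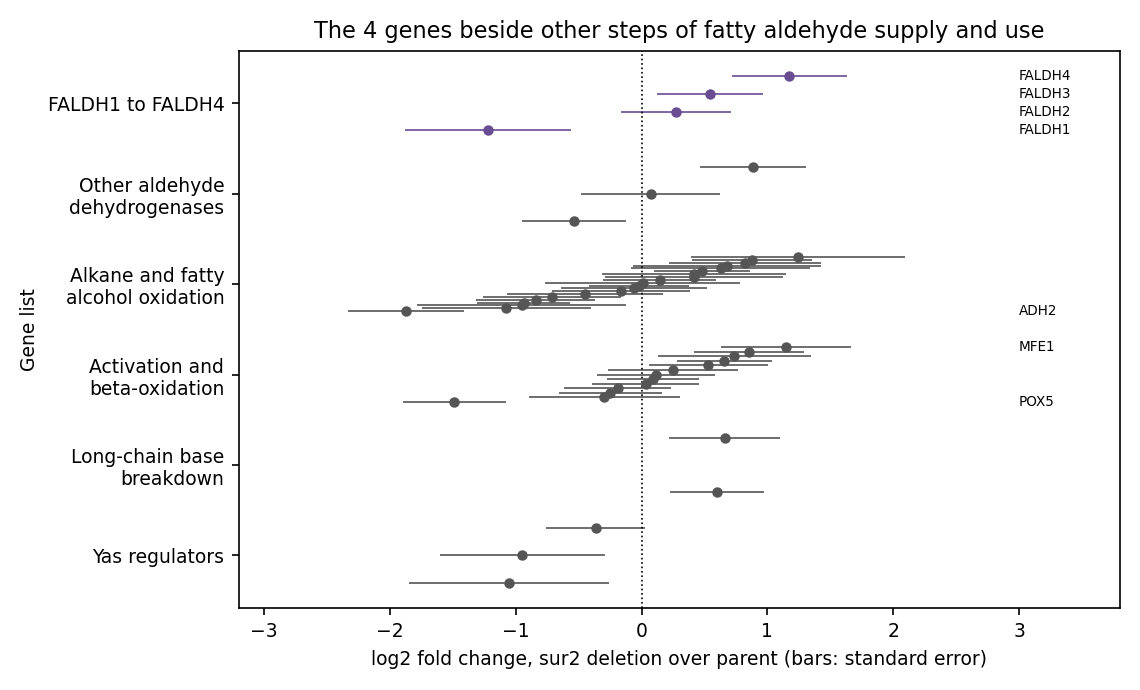
Log2 fold change, deletion over parent, of each tested gene by list, with bars for the standard error, for FALDH1 to FALDH4 (purple) and 5 other lists (grey); the YGL010W relative, with 0 reads in both deletion libraries, is left out because it has no standard error. None of the plotted genes passed with edgeR, while ADH2 and POX5 passed with DESeq2. ALK10, with 12 and 6 reads in the deletion libraries and 5 and 3 in the parent libraries, is highest at 1.24. FALDH4 at 1.18 and MFE1 at 1.15 come next, and ADH2 at -1.87 and POX5 at -1.49 stand at the lower side.

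The sphingolipid route was represented by 3 genes. YALI0_B11154g, related to the long-chain base kinase LCB5, had 106 and 74.8 CPM in the deletion libraries against 68.4 and 50.6 CPM in the parent libraries (log2 fold change 0.60 ± 0.37, edgeR adjusted p = 0.599), or 0.33 without the transcript-table deletion library. YALI0_E28237g is related to YDR294C, the lyase DPL1 that releases the fatty aldehyde. It had 45.8 and 99.6 CPM in the deletion libraries against 45.3 and 46.5 CPM in the parent libraries (log2 fold change 0.66 ± 0.44, edgeR adjusted p = 0.636). Its transcript-table deletion library lay between the parent libraries and its gene-table one well above them, and without the gene-table one the log2 fold change was -0.0057.

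Of the 3 tested genes of this list 1 passed with edgeR, DESeq2 and limma on TPM, against 1.24%, 6.38% and 3.33% of all tested genes. In the lists of alkane and alcohol oxidation and of beta-oxidation, with 20 and 13 tested genes, 0 passed with edgeR. With so few genes the count only describes the list. The gene that passed was the third, YALI0_E35024g, which was lower in the deletion strain. It is related to YGL010W, which in Saccharomyces cerevisiae is MPO1, a dioxygenase that shortens the hydroxylated acid formed after HFD1 has oxidised the aldehyde of phytosphingosine, the base that SUR2 makes. It had 0 and 0 reads in the deletion libraries and 319 and 143 in the parent libraries, at least 128-fold lower in the deletion strain if 3 counts in its 2 libraries together are taken as the floor (edgeR adjusted p = 0.0144). Without the transcript-table or the gene-table parent library its adjusted p was 0.481 or 0.432 (edgeR), in fits that called 0 genes in all, with 414 and 361 genes at an unadjusted p under 0.05. It is among the last 10 protein-coding genes of the right end of chromosome E, of which 4 had reads in both parent libraries and none in either deletion library. A lost stretch of that end and a change in transcription cannot be told apart.

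The regulators YAS1, YAS2 and YAS3, which control the response of alkane genes in Yarrowia, had log2 fold changes of -1.05 ± 0.79, -0.95 ± 0.66 and -0.37 ± 0.40 (edgeR adjusted p = 0.686, 0.644 and 0.81). With edgeR, DESeq2 and limma on TPM 0 of the 3 passed, against 1.24%, 6.38% and 3.33% of all tested genes. None had an unadjusted p under 0.05 with any of the 3 tools, against 12.4% of all tested genes in edgeR. The groups overlapped for all 3 regulators. YAS2 (YALI0_E32417g) had 87.8 and 65.9 CPM in the deletion libraries, against 248 and 48.6 CPM in the parent libraries, the transcript-table parent library standing above the others. Without that library YAS1 was at 0.082, YAS2 at 0.62 and YAS3 at 0.044.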

How the data were processed

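RNA of 4 libraries, 2 per strain, was prepared with the TruSeq Stranded mRNA kit, per the labels' protocols. The authors deposited raw read counts, whole numbers for each gene in 1 table and each transcript in the other. Per the file headers, the deposited tables also hold TPM, which the authors scaled for length within a library. Columns of values left unused number 4 (RPKM). How reads were aligned and counted, with which strand setting and on which build, is not stated in the sources used here.

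The tables were joined on gene identifier, which left 8381 features; 1 feature is not used here. Library names give the strain and not the replicate number. A chi-square of 299 (deletion) and 146 (parent) per degree of freedom showed no library deposited in duplicate, so each was counted as 1 replicate, whether from a separate culture or not. The test on counts was edgeR's quasi-likelihood F-test (version 4.0.16, R 4.3.3; filterByExpr, TMM factors of 0.846 to 1.115, strain as the only term, Benjamini-Hochberg, two-sided, common dispersion 0.1424). Standard errors and 95% intervals come from the fold change, its F value and the fit's degrees of freedom. A count of 3 was 0.18 to 0.342 CPM of a library before TMM scaling. The alternatives were DESeq2 1.42.0, other size factors, no filter, limma 3.58.1 on log2(TPM + 1) or log2(TPM + 0.5) with a mean TPM of at least 1 or no filter, the table as a block, and each library left out. The code was tested on simulated data.

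The members and lists were chosen with earlier results of these data known. Genes named are the members, their neighbours, list genes that passed, otherwise the 3 of smallest p in each list, and the 3 described genes nearest to each member in log2 CPM with a prior count of 2. Of the neighbours that did not pass, only the range is given, with the exception of 2 described by name. SUR2, LEU2 and KU70 were named as strain checks. The supplied gene table is of another assembly, holds none of these identifiers and was not used.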

Additional observations from a re-analysis of the deposited data

How the results depend on the processing

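With 2 libraries per strain, moderate differences of these genes can miss the threshold over all genes, and a missed threshold does not show that levels were equal. In CPM the 2 strains overlapped for FALDH2 only. Over all tested genes the deletion was higher without overlap for 22.1% and lower without overlap for 20.2%. FALDH1, FALDH3 and FALDH4 kept their direction under all 11 alternatives, at -1.72 to -0.50, 0.10 to 0.88 and 0.58 to 1.59 on the log2 scale. FALDH4 passed under 1 of them, at 1.59 without the transcript-table deletion library, and its adjusted p ran from 0.0147 to 0.871. With 1 library left out FALDH2 ran from -0.12 to 0.64 and was reversed without the gene-table deletion library (-0.12) and without the gene-table parent library (-0.04). FALDH1, FALDH2 and FALDH3 passed under none of the 11, with adjusted p of 0.33 to 0.921, 0.613 to 0.999 and 0.343 to 0.999. The shares of the summed level were alike in counts per kilobase. The count of 75 genes became 386 with DESeq2, 196 and 206 with limma on TPM with a pseudocount of 1 and 0.5, 145 with the table as a block, and 0 to 685 with 1 library left out. It was 0 without either parent library, with 414 and 361 genes at an unadjusted p under 0.05 in edgeR. It was 685 without the transcript-table deletion library and 204 without the gene-table one. The column names give no replicate number, so the block pairs the libraries that share a table. With this block FALDH4 was at 1.09 (adjusted p = 0.437), and the 75 genes were all among the 145 called. Over the tested genes, the differences between the tables correlated at r = 0.127 between the strains, with only 2 pairs of libraries, which does not show that the design paired them. With 1 library left out YALI0_E00264g ran from -0.63 to 0.76, turning without the gene-table deletion library (-0.63) and without the transcript-table parent library (-0.43), and DPL1 ran from -0.0057 to 1.11, turning without the gene-table deletion library. The range was -1.68 to 0.082 for YAS1, -1.69 to 0.62 for YAS2 and -0.71 to 0.044 for YAS3, each turning without the transcript-table parent library. YAS3 also turned with limma on TPM, at 0.077 with a pseudocount of 1, filtered or not, and 0.081 with 0.5.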
